A study of Mus musculus with 14 samples.

Results

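The miR-17-92 cluster is a group of microRNAs (miRNAs) cut from 1 primary transcript. It was followed here through the 7 mature miRNAs mmu-miR-17-5p, mmu-miR-17-3p, mmu-miR-18a-5p, mmu-miR-19a-3p, mmu-miR-20a-5p, mmu-miR-19b-3p and mmu-miR-92a-3p (written below without the prefix mmu-), taken by name from the 1247 miRNAs of an Agilent mouse array, and all 7 were on it. The study measured miRNAs in bone marrow and hypothalamus of male C57BL/6 mice aged 6 to 8 weeks, 12 h after 0 or 8 Gy of gamma rays and after a radioprotective drug or its vehicle. Bone marrow came from 5 pretreatment arms: phosphate-buffered saline (PBS) injected i.p., PBS given into the stomach (i.g.), amifostine i.p. at 10 mg/kg and 0.5 h ahead of the dose, CBLB502 i.p. at 0.2 mg/kg and 0.5 h ahead, and nilestriol i.g. at 150 mg/kg and 48 h ahead. Amifostine is a thiol radical scavenger, CBLB502 a flagellin-derived agonist of Toll-like receptor 5, and nilestriol a long-acting oestrogen. Hypothalamus came from PBS i.p. and amifostine mice at both doses. Every array held a pool of 3 mice, and each of the 14 groups had 1 array, so the spread used below is that between arms and not between repeats of a group.

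The primary transcript of the cluster, Mir17hg, is induced by the MYC and E2F transcription factors in dividing cells. Its miRNAs repress inhibitors of the cell cycle and promoters of cell death, among them Cdkn1a and Bcl2l11 (Bim), and mice lacking the cluster have a block in early B-cell development. Related clusters, miR-106b-25 and miR-106a-363, carry miRNAs of the same seeds, and a seed (bases 2 to 8) is the part of a miRNA that chiefly selects its targets.

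The mature sequences show why the cluster is read as several families. They are RefSeq sequences on GRCm38.p6, where the 7 lie on the plus strand at chr14:115043684-115044496, a stretch of 813 bases, in the order printed. Seeds are in capitals.
miR-17-5p: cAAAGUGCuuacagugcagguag
miR-17-3p: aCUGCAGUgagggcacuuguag
miR-18a-5p: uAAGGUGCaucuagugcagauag
miR-19a-3p: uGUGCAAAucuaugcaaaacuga
miR-20a-5p: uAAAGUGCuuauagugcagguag
miR-19b-3p: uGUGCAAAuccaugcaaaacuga
miR-92a-3p: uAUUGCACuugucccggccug
miR-17-5p and miR-20a-5p share the seed AAAGUGC, miR-19a-3p and miR-19b-3p share GUGCAAA, and miR-18a-5p (AAGGUGC), miR-92a-3p (AUUGCAC) and miR-17-3p (CUGCAGU) each have another. Counted from the 5′ end, miR-19a-3p differs from miR-19b-3p at 1 base (U11C), and miR-17-5p differs from miR-20a-5p at 2 (C1U and C12U). miR-19b-3p and miR-92a-3p are also encoded on chromosome X, in Mir19b-2 and Mir92-2 of the miR-106a-363 cluster, with the same mature sequence, so their signal sums both loci.

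The precursor of miR-17 gives 2 members, one from each side of the hairpin, and both are in capitals in the RefSeq hairpin Mir17 at chr14:115043671-115043754.
Mir17: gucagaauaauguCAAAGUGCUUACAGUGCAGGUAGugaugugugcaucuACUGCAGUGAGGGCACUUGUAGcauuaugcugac

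The array probes set how far these relatives can be told apart, since each covers only the 3′ part of a miRNA. The longer probe of each of 3 close miRNAs follows, with the base at which it differs from its neighbour in capitals.
miR-19a-3p probe: tcagttttgcatAgatttgca
miR-19b-3p probe: tcagttttgcatGgatttgc
miR-17-5p probe: ctacctgcactGt
The miR-19a-3p and miR-19b-3p probes differ at 1 base of the 20 they share. The probes of miR-17-5p are 12 and 13 bases long, match miR-106a-5p in full and match miR-20a-5p and miR-20b-5p with 1 mismatch. The signal reported as miR-17-5p may therefore include miR-106a-5p, which differs from it at 1 base (U10A) outside the probed part. The probes of miR-17-3p, miR-18a-5p and miR-92a-3p had no other mouse miRNA within 1 mismatch.

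Values are log2 of the spot signal divided by the upper quartile (75th percentile) of that array's steadily detected miRNAs, so 0 is that quartile, and signals of different miRNAs are not compared because their probes differ. Between 332 and 403 miRNAs were detected per bone marrow array and 478 to 582 per hypothalamus array. The tissue labels were checked with marker miRNAs. All 6 neuronal markers were detected in hypothalamus, against only miR-128-3p in bone marrow, and the summed scaled signal of the myeloid markers, led by miR-223-3p, was 40.3 to 86.5 in bone marrow and 0.0988 to 0.149 in hypothalamus on the matched arrays. Of 4 choroid plexus and ependyma markers, 3 or 4 were detected per hypothalamus array. The lymphoid markers did not separate the tissues, with sums of 1.73 to 2.73 in bone marrow and 1.86 to 3.04 in hypothalamus. The erythroid miR-451a was detected on 4 of 4 hypothalamus arrays, with a mean log2 value of 1.11 against 7.34 in bone marrow. Whether blood in the hypothalamus pools added to the members' signal there was not tested. Bone marrow PBS and CBLB502 arrays lay on slide 1 with the hypothalamus PBS arrays, bone marrow amifostine and nilestriol arrays on slide 2 and hypothalamus amifostine arrays on slide 3.

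The first comparison set bone marrow beside hypothalamus, over the 4 conditions present in both (PBS i.p. and amifostine, at 0 and 8 Gy). All 7 members were higher in bone marrow on every matched pair of arrays, by a median of 4.13 (log2), and all 7 passed at an adjusted p of 0.05 (limma with Benjamini-Hochberg adjustment over 530 miRNAs). Among them, miR-18a-5p and miR-19a-3p met the detection filter through bone marrow alone, with every hypothalamus value at the floor. Their calls, here and in the checks below, rest on detection in bone marrow only and are not separate support. Of the 530, 56% were called (15.8% higher in bone marrow and 40.2% lower), and the median of all was -0.38. With slide 2 as a term, which leaves the tissue difference to the PBS pairs of slide 1, 7 of 7 members were called (median 4.18). The PBS arrays of slide 1 fitted alone are those same pairs, and 7 of 7 were called there too (median 4.15). In the amifostine pairs, on slides 2 and 3, tissue cannot be told apart from slide. In whole tissue, fewer cells that make a miRNA and less of it per cell cannot be told apart.

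The members with the AAAGUGC seed, which target Cdkn1a and E2f1, are taken first. miR-20a-5p read 2.06 with PBS and 1.71 with amifostine at 0 Gy and 1.97 and 2.03 at 8 Gy in bone marrow, against -2.42, -1.93, -2.16 and -2.54 in hypothalamus. The 2 tissues were thus more than 3 log2 units apart in every condition, whereas the 4 arrays within a tissue spanned less than 1. The difference was 4.21 ± 0.19 (SE, 18.5-fold, adjusted p = 6.15e-05 with limma). miR-17-5p read -1.66, -1.92, -1.62 and -1.82 in bone marrow in the same order and -5.18, -5.37, -5.61 and -5.31 in hypothalamus. Its hypothalamus values lay at or near the floor of -5.61 below which signals were not read, with 1 of 4 at it, and only the longer of its 2 probes was detected there. The fitted difference was 3.61 ± 0.14 (12.2-fold, adjusted p = 3.17e-05 with limma). Its hairpin partner miR-17-3p read -1.79, -2.16, -1.72 and -1.96 in bone marrow and -4.80, -4.40, -4.73 and -4.73 in hypothalamus, a difference of 2.76 ± 0.17 (6.76-fold, adjusted p = 0.000181 with limma). Both miR-17 strands turned lower in bone marrow, by 1.61 and 1.60, when the totals written by the scanner software replaced the averaged spots. Those totals were 664 to 753 for the pair on 3 of the 4 hypothalamus arrays, where the averaged spot signals were 6.53 to 18.7 intensity units.

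miR-18a-5p and miR-19a-3p were detected on 4 of 4 matched bone marrow arrays and on 0 of 4 hypothalamus arrays. miR-18a-5p read -1.10, -1.38, -1.17 and -1.11 in bone marrow, and the mean of these was at least 16.9-fold above the lowest signal measurable in hypothalamus. miR-19a-3p read -1.62, -1.48, -1.23 and -1.44, with a mean at least 14.2-fold above that signal. Both met the detection filter through bone marrow alone, and their hypothalamus values were all set to the floor, which has no spread. Their limma calls therefore add nothing to these readings.

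miR-19b-3p, which shares its seed with miR-19a-3p, was detected on every hypothalamus array. It read 1.69, 1.55, 1.54 and 1.38 in bone marrow and -2.02, -1.47, -2.13 and -2.10 in hypothalamus. Here too no values of the 2 tissues came near each other, and the difference was 3.47 ± 0.16 (11.1-fold, adjusted p = 6.00e-05 with limma). In intensity units miR-19b-3p gave 83.3 to 132 on the hypothalamus arrays and 511 to 1168 on the 10 bone marrow arrays. miR-92a-3p, which represses Bcl2l11, read 2.30, 1.78, 2.18 and 2.20 in bone marrow and -2.30, -1.81, -1.65 and -2.28 in hypothalamus, a difference of 4.13 ± 0.22 (17.5-fold, adjusted p = 9.63e-05 with limma).

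**Figure D1:**
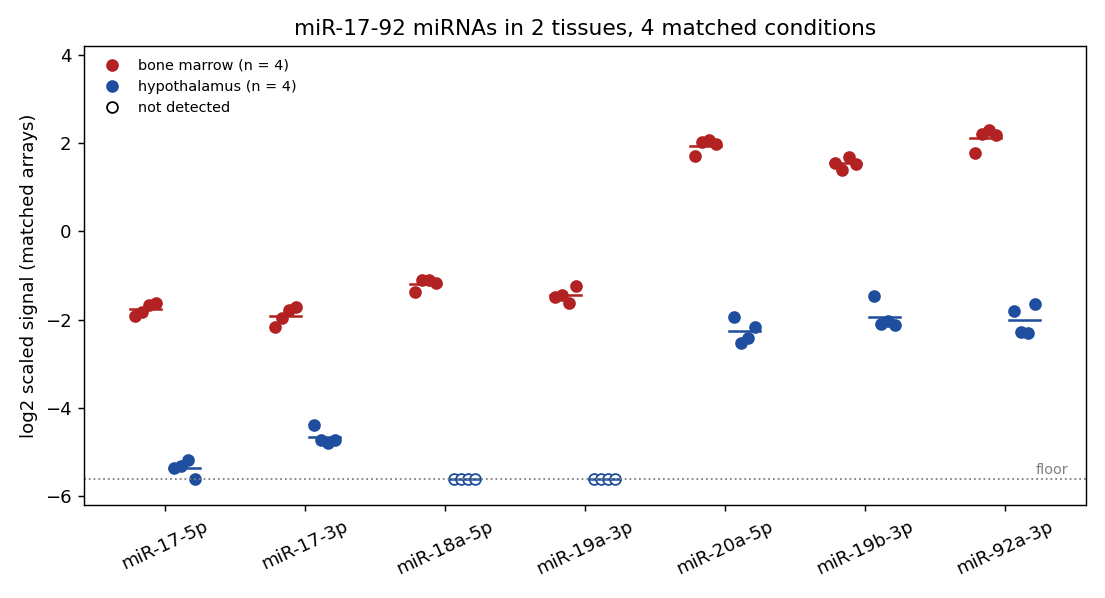
Log2 scaled signal of the 7 members (y axis) on the 4 bone marrow (red) and 4 hypothalamus (blue) arrays of matched conditions. Each point is 1 array, bars are means, open points were not detected and the dotted line is the floor of -5.61. For each miRNA all red points lie above all blue ones, and miR-18a-5p and miR-19a-3p are at the floor in hypothalamus; heights are to be compared within a miRNA, not between them.

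Seed groups were set against each other within each array by subtracting the mean of miR-17-5p and miR-20a-5p. Scaling cancels in this for values above the floor, but not for values raised to it. The tissue difference of miR-18a-5p exceeded that of this pair by 0.51 ± 0.12 (SD, n = 4 conditions), and it was larger in 4 of 4 conditions. The exact two-sided sign-flip permutation test gave p = 0.125, the smallest that 4 conditions allow, and 0.375 after adjustment over 3 contrasts. The miR-19 pair differed from the miR-17 pair by -0.09 ± 0.10 and miR-92a-3p by 0.22 ± 0.37, with exact permutation p = 0.25 and 0.375. With miR-18a-5p and miR-19a-3p at the floor in hypothalamus, the first and second of these contrasts depend on where the floor lies. All 3 depend on it through miR-17-5p, which was at the floor on 1 of the 4 hypothalamus arrays.

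The related clusters were measured through 16 listed miRNAs, 15 of them on the array under these names. In the tissue comparison 5 were tested and 4 were called higher in bone marrow, namely miR-20b-5p by 4.27 ± 0.17, miR-25-3p by 4.47 ± 0.29, miR-93-5p by 3.79 ± 0.26 and miR-106b-5p by 3.48 ± 0.26. miR-106b-3p differed by 0.20 ± 0.13 and was not called (adjusted p = 0.250 with limma). It was detected on 0 of 4 hypothalamus arrays, and 2 of its 4 bone marrow values were at the floor. Its value therefore does not measure a tissue difference. Of the other strands of the cluster's hairpins, miR-18a-3p was detected on 10 of 10 bone marrow arrays and miR-20a-3p on 1, and miR-19a-5p, miR-19b-1-5p and miR-92a-1-5p on 0. miR-92b-3p, which has the seed of miR-92a-3p, was detected on 4 of 4 hypothalamus arrays and on 0 of 10 bone marrow arrays. Its matched values lay at or near the floor in both tissues, with means of -5.51 in hypothalamus and -5.59 in bone marrow. They show no tissue difference in level.

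The second comparison asked what 8 Gy did to the members in bone marrow, across the 5 arms. None of the 7 passed (limma, 371 miRNAs tested, 12.7% called, of which 9.16% higher and 3.5% lower), and 1 of 7 had an unadjusted p under 0.05. The member differences ran from -0.39 to 0.04 with a median of -0.14, against 0.09 for all 371. The called share of 47 miRNAs itself ranged from 1 to 93 when single arrays were left out, with 1 called without the unirradiated PBS i.p. or amifostine array.

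miR-19b-3p had the lowest value of the 7. On the unirradiated arrays it read 1.87 for each of the PBS routes, 1.72 after amifostine, 1.60 after CBLB502 and 1.39 after nilestriol. After 8 Gy it read 1.59 for PBS i.p., 1.32 for PBS i.g., and 1.41, 0.90 and 1.28 for the drugs in the same order. It was lower after irradiation in 5 of 5 arms, by 0.12 (nilestriol) to 0.71 (CBLB502), although the ranges at the 2 doses overlapped. The difference was -0.39 ± 0.12 (1.31-fold lower, adjusted p = 0.0767 with limma), short of the threshold. In all, 41 of 371 miRNAs (11.1%) were lower in every arm, and 1 of them was a member. The value passed when either nilestriol array was left out (adjusted p = 0.0400 without the 0 Gy and 0.0452 without the 8 Gy array, limma). With the arm as block, both leave-outs remove the nilestriol arm from the difference and are 1 check. miR-19b-3p also passed with quantile normalization (-0.56, adjusted p = 0.0244) and with a normexp background (-0.37, adjusted p = 0.0374, all limma). Its adjusted p ranged from 0.0244 to 0.450 over 24 alternatives. Its 2 probes each gave -0.39. miR-19a-3p, its seed partner, read -1.44, -1.02, -1.32, -1.12 and -1.48 at 0 Gy and -1.17, -1.79, -1.41, -1.51 and -1.56 at 8 Gy (PBS i.p., PBS i.g., then the drugs, an order kept below). It was lower in 4 of 5 arms, the exception being PBS i.p., where it was 0.27 higher. Its difference was -0.21 ± 0.16 (adjusted p = 0.356 with limma).

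miR-20a-5p read 2.24, 1.98, 1.88, 1.86 and 1.48 at 0 Gy and 2.02, 1.76, 2.06, 1.75 and 1.72 at 8 Gy. It was lower in 3 arms and higher in 2, and the difference of -0.03 ± 0.11 spanned 0, with a 95% interval from -0.30 to 0.25. miR-17-5p read -1.48, -1.52, -1.75, -1.84 and -2.21 at 0 Gy and -1.57, -2.01, -1.79, -2.13 and -2.00 at 8 Gy, a difference of -0.14 ± 0.12 (adjusted p = 0.434 with limma). For both, the groups overlapped almost fully. miR-17-3p went from between -2.30 and -1.61 to between -2.25 and -1.67, a difference of -0.07 ± 0.11.

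miR-18a-5p read -0.92, -0.90, -1.22, -1.13 and -1.49 at 0 Gy and -1.11, -1.50, -1.08, -1.27 and -1.46 at 8 Gy, a difference of -0.15 ± 0.13 (adjusted p = 0.404 with limma). miR-92a-3p read 2.47, 2.04, 1.95, 2.01 and 1.37 at 0 Gy and 2.24, 1.98, 2.23, 1.82 and 1.80 at 8 Gy, a difference of 0.04 ± 0.13 with a 95% interval from -0.28 to 0.37. It was the only member with a value above 0, and this sign turned under 9 of 24 alternative settings. Those 9 include both leave-outs of the amifostine arm and both of the nilestriol arm, and each such pair is a single check.

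**Figure D2:**
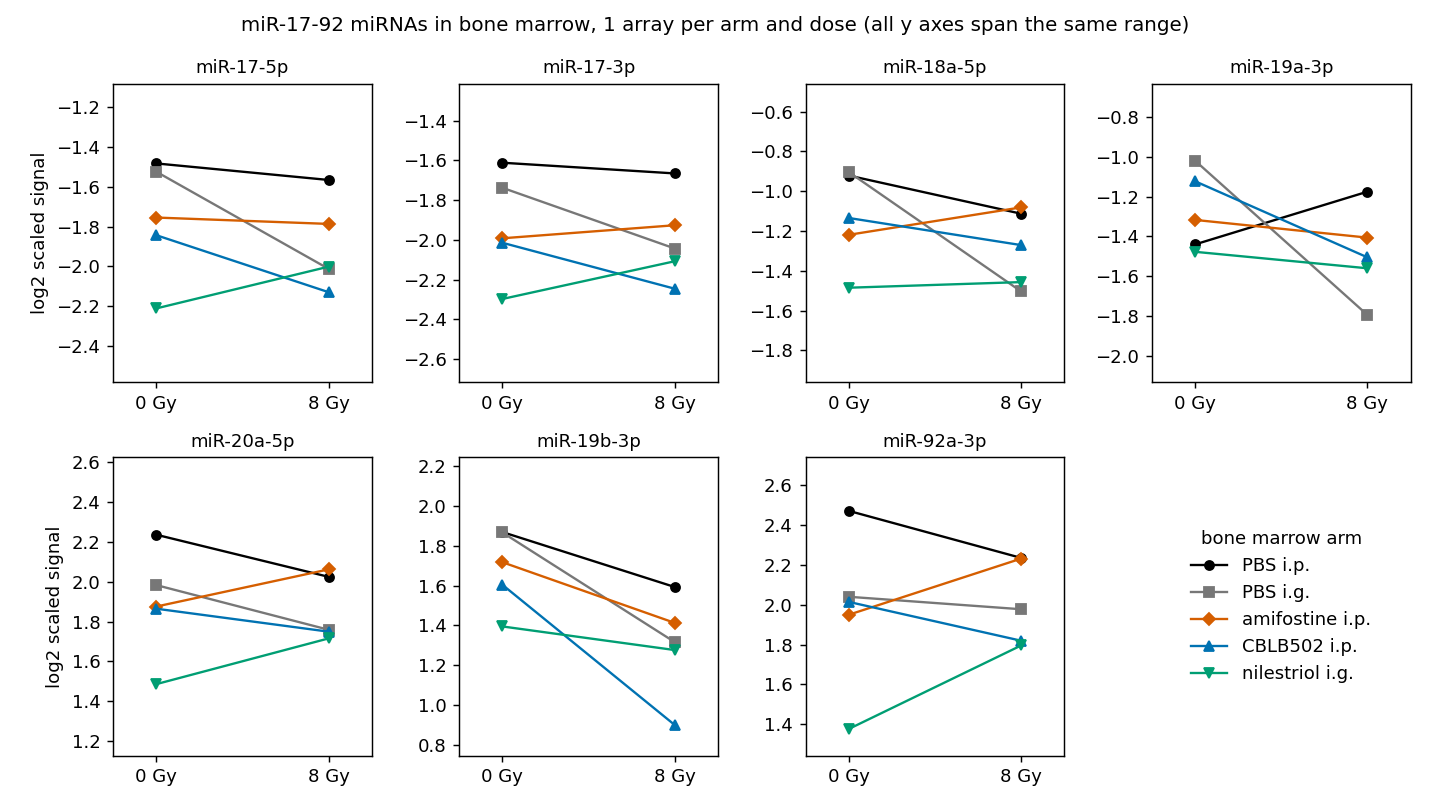
Log2 scaled signal (y axis) of each member in bone marrow at 0 and 8 Gy, 1 line per pretreatment arm and 1 array per point; all axes span the same number of log2 units. Only miR-19b-3p has 5 lines that run downward, from 1.39 to 1.87 at 0 Gy down to 0.90 to 1.59 at 8 Gy.

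The arms did not move alike. All 7 members were lower after 8 Gy with PBS i.g. (median -0.49) and with CBLB502 (median -0.23), and 6 of 7 with PBS i.p. (median -0.19). With amifostine 3 of 7 were lower (median 0.07) and with nilestriol 2 of 7 (median 0.19). The shares of all 371 miRNAs that were lower were 53.4% with PBS i.g., 42.6% with CBLB502, 36.7% with PBS i.p., 44.7% with amifostine and 41% with nilestriol. By slide, 20 of the 21 scaled member values of slide 1 were lower after 8 Gy and 9 of the 14 of slide 2 were higher. Members share arrays and are not repeats, so these counts rest on 3 arms and 2 arms. The slide 2 count depended on the scaling. Without scaling 12 of those 14 were lower, 7 of 7 with amifostine (median -0.34) and 5 of 7 with nilestriol (median -0.04), while 16 of 21 were lower on slide 1 and 4 of 7 with PBS i.p. were higher (median 0.02). Lower values numbered 7 of the 14 with quantile normalization and also in the authors' table, 6 with scaling over all miRNAs and 3 with a normexp background. Under the main scaling, the median over the members was -0.27 within slide 1 and 0.12 within slide 2. On slide 2 miR-20a-5p was higher by 0.24, miR-17-3p by 0.16, and miR-17-5p and miR-18a-5p by 0.12 each, and on slide 1 miR-92a-3p was lower by 0.15. Whether drug or slide separated these arms cannot be told apart.

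**Figure D3:**
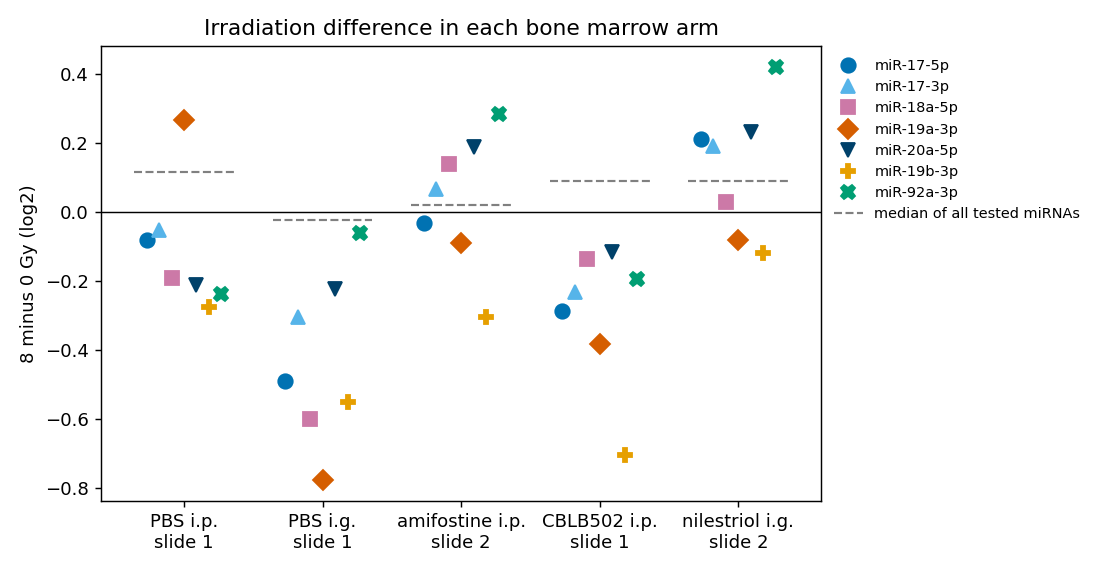
8 minus 0 Gy difference (log2, y axis) of each member in each bone marrow arm, with 1 symbol per miRNA and the slide named below each arm; dashed lines are the medians of all 371 tested miRNAs. The slide 1 arms hold 20 of 21 points below 0, and the slide 2 arms hold 9 of 14 above it. Points of the same arm share its arrays and are not repeats. The values are scaled; without scaling 12 of the 14 slide 2 values are below 0.

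In the 4 PBS arrays alone, which involve no drug, all 7 members were lower after 8 Gy, by 0.14 to 0.40 (median -0.24, against 0.04 for all 362 tested). None passed, and of all miRNAs 0% were called with limma, while 107 had an unadjusted p under 0.05, none of them a member. This fit has 1 residual degree of freedom before moderation.

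Markers of other bone marrow cells moved across the same arrays. All 6 tested erythroid markers, such as miR-451a and miR-144-3p, were called higher after 8 Gy, against 9.16% of all 371 miRNAs. The 6 include both strands of miR-144 and of miR-3107, so they are not 6 separate markers. Their summed scaled signal was 46.7 to 123 at 0 Gy and 186 to 312 at 8 Gy. Among 4 lymphoid markers 2 were called lower, against 3.5% of all. The lymphoid sum was 1.57 to 3.09 at 0 Gy and 1.34 to 1.99 at 8 Gy. The 3 tested myeloid markers summed to 36.1 to 70.5 and 53.6 to 90.0, with 1 called higher. Their part in the members' values was not tested.

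Within arrays, the miR-19 pair moved by -0.22 ± 0.20 (SD, n = 5 arms) relative to miR-17-5p and miR-20a-5p after 8 Gy, and it was lower in 4 of 5 arms. The exact two-sided sign-flip permutation test gave p = 0.125 (0.281 adjusted over 3 contrasts), and the smallest p for 5 arms is 0.0625. miR-92a-3p moved by 0.12 ± 0.16 relative to the pair (higher in 4 of 5 arms, exact permutation p = 0.1875), and miR-18a-5p by -0.07 ± 0.14 (lower in 3 of 5, exact permutation p = 0.4375). No contrast passed.

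Of the 6 paralogs tested, 2 were called for irradiation, in opposite directions. miR-25-3p, of the miR-106b-25 cluster and with the miR-92a-3p seed, was higher by 0.58 ± 0.14 (adjusted p = 0.0432 with limma). The X-linked miR-363-3p, which has that seed too, read -3.13, -3.79, -3.57, -3.48 and -4.69 at 0 Gy, where it was detected on 5 of 5 arrays, and was detected on 0 of 5 at 8 Gy. It met the detection filter through the 0 Gy arrays alone, so its call adds nothing to these detections. miR-93-5p (0.44 ± 0.13) and miR-106b-5p (0.36 ± 0.14) were not called, and neither was miR-20b-5p (-0.18 ± 0.11).

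The third comparison set each drug against the 4 PBS arrays over both doses. With CBLB502, 12.1% of 371 miRNAs were called (20 higher, 5.39%, and 25 lower, 6.74%, limma), and 0 of the 7 members. Scaling over all miRNAs gave a split of 13 higher to 70 lower, quantile normalization one of 6 to 42, and none was called without scaling or against the PBS i.p. arrays alone. Of the 7 members 6 had values below 0, with a median of -0.26 against 0.15 for all. miR-19b-3p was lowest at -0.41 ± 0.15 (adjusted p = 0.0936 with limma). Beside the PBS i.p. array of the same dose it was lower by 0.27 at 0 Gy and by 0.69 at 8 Gy. miR-17-3p differed by -0.37 ± 0.16 and miR-17-5p by -0.34 ± 0.17, and both were below the PBS i.p. array at both doses. miR-92a-3p (-0.26 ± 0.20), miR-20a-5p (-0.19 ± 0.16), miR-18a-5p (-0.09 ± 0.17) and miR-19a-3p (0.04 ± 0.21) were within or near the spread between arrays. With scaling over all miRNAs, which moved the median of all from 0.15 to -0.02, 3 members were called (miR-19b-3p -0.65, miR-17-3p -0.60 and miR-17-5p -0.58), and with quantile normalization 1 was (miR-17-3p, -0.61). Leaving out single arrays gave 0 to 88 calls over all miRNAs and 0 among the members, with 0 of all without either PBS i.p. array, the 0 Gy PBS i.g. array or the 8 Gy CBLB502 array.

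Nilestriol gave lower values for all 7 members, with a median of -0.40 against 0.02 for all. None passed, and 0% of the 371 miRNAs were called with limma, while 95 had an unadjusted p under 0.05, 4 of them members. miR-92a-3p differed by -0.60 ± 0.20 (1.51-fold lower, adjusted p = 0.179 with limma), miR-17-5p by -0.46 ± 0.17, miR-17-3p by -0.44 ± 0.16 and miR-20a-5p by -0.40 ± 0.16. miR-18a-5p, miR-19b-3p and miR-19a-3p differed by -0.36, -0.33 and -0.16. By dose the values were not alike. Beside the PBS i.g. array, the 7 members were lower with nilestriol by 0.46 to 0.69 without irradiation, and differed by -0.18 to 0.23 at 8 Gy; each is 1 array against 1. At 8 Gy all 7 were lower without scaling (-0.49 to -0.07) and with scaling over all miRNAs (-0.53 to -0.11). With scaling over all miRNAs 5 members were called (miR-92a-3p -0.83, miR-17-5p -0.70, miR-17-3p -0.67, miR-20a-5p -0.64 and miR-18a-5p -0.60). That scaling moved the median of all miRNAs from 0.02 to -0.16 and called 72 miRNAs, 1 higher and 71 lower. All nilestriol arrays lay on slide 2 and all PBS arrays of bone marrow on slide 1, so the drug cannot be told apart from the slide.

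With amifostine the members differed from PBS by -0.19 to -0.004, with a median of -0.09 against 0.05 for all. The median was -0.35 with scaling over all miRNAs, which moved the median of all to -0.18, and it ran from -0.19 to 0.06 when single arrays were left out, being above 0 without the 0 Gy amifostine array (0.06) or the 8 Gy PBS i.p. array (0.02). It was also above 0 with the scanner totals (0.02). The 95% intervals bound what could be missed, at -0.57 to 0.18 for miR-17-3p and -0.56 to 0.38 for miR-92a-3p. Of 371 miRNAs 0% were called with limma, while 76 had an unadjusted p under 0.05, none a member, and the slide limit of nilestriol holds here too.

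**Figure D4:**
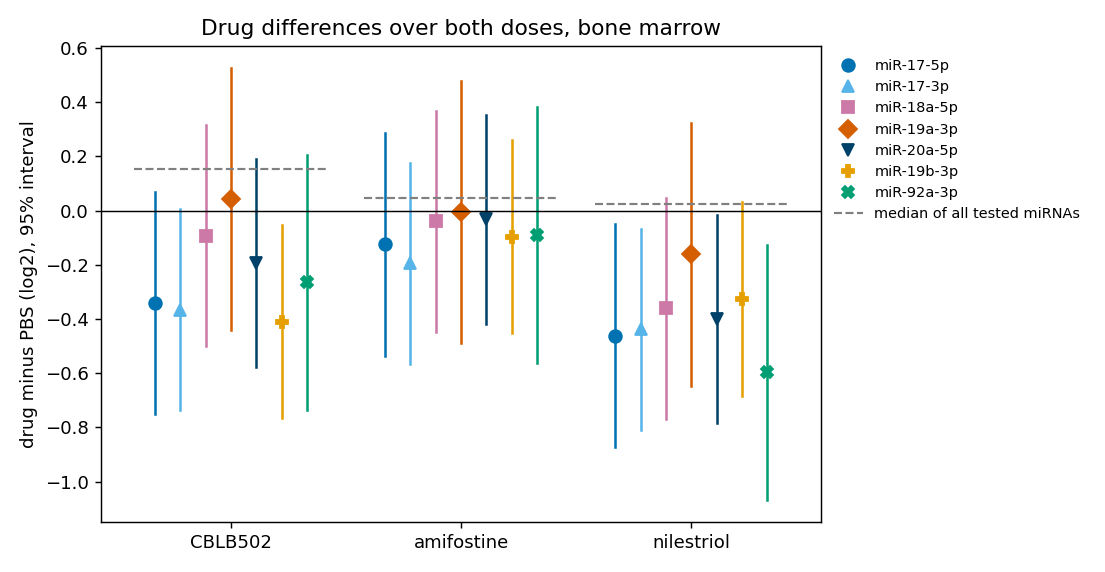
Drug minus PBS difference (log2, y axis) of each member in bone marrow over both doses, with 95% intervals from limma; dashed lines are the medians of all 371 tested miRNAs. The nilestriol symbols all lie below 0, between -0.60 and -0.16, and the amifostine symbols lie between -0.19 and 0.

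Whether a drug altered the irradiation difference was tested for each drug against the PBS arms. All 7 members were positive with amifostine (0.11 to 0.53, median 0.25 against 0.04 for all) and with nilestriol (0.17 to 0.57, median 0.42 against 0.23 for all). The direction for amifostine turned without scaling, where all 7 were negative (median -0.32 against -0.45 for all). For nilestriol 3 of 7 were then negative (median 0.03 against -0.09 for all). With quantile normalization 1 of 7 was negative for either drug, and with scaling over all miRNAs 0. With CBLB502 they ran from -0.29 to 0.26. No member passed in any of these fits, in which 0% of miRNAs were called with limma and 38 (CBLB502), 61 (amifostine) and 85 (nilestriol) of 371 had an unadjusted p under 0.05, none a member. A lone drug array was assumed here to vary like the PBS pairs, with standard errors from 0.22 (miR-19b-3p) to 0.54 (miR-19a-3p). The 95% intervals were wider than these errors. With CBLB502 they ran from -0.98 to 0.40 for miR-19b-3p and from -1.84 to 1.58 for miR-19a-3p. Differences well above the standard errors could therefore be missed.

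The PBS routes differed from each other by amounts like those of the drugs. At 8 Gy all 7 members were lower with PBS i.g. than with PBS i.p., by 0.26 to 0.62, and at 0 Gy the difference ran from -0.43 for miR-92a-3p to 0.42 for miR-19a-3p. Each is 1 array against 1, with no test. Without scaling 4 of 7 were lower at 8 Gy (-0.27 to 0.09) and all 7 were higher at 0 Gy (0.01 to 0.87).

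In hypothalamus 5 of the 7 members could be tested, since miR-18a-5p and miR-19a-3p were detected on 0 of 4 arrays. miR-19b-3p read -1.36 with PBS and -1.07 with amifostine at 0 Gy and -1.77 and -1.59 at 8 Gy on the hypothalamus scale. Both irradiated arrays were below both unirradiated ones, with a difference of -0.47 ± 0.17 (adjusted p = 1 with limma). miR-92a-3p read -1.63 and -1.41 at 0 Gy and -1.30 and -1.76 at 8 Gy, so its pairs moved in opposite directions (difference -0.01 ± 0.29). miR-20a-5p, miR-17-5p and miR-17-3p differed by -0.27 ± 0.23, -0.30 ± 0.37 and -0.23 ± 0.17. The miR-17-5p pairs also moved in opposite directions (-0.77 with PBS and 0.18 with amifostine), with the 8 Gy PBS value at the floor. None of the 5 passed, and of 544 miRNAs 0% were called with limma and 0 had an unadjusted p under 0.05. For amifostine the 5 members differed by -0.12 to 0.24 and none passed (0% called with limma, 1 miRNA with an unadjusted p under 0.05, no member). The irradiation difference of bone marrow exceeded that of hypothalamus by 0.06 to 0.29 across these 5, none called (0% of 530 with limma, 21 at an unadjusted p under 0.05, no member). The direction depended on the scaling: over the 7 fitted members, with miR-18a-5p and miR-19a-3p at the floor in hypothalamus, 4 were negative without scaling (median -0.01), 4 with quantile normalization and 4 with the authors' table, and 3 with scaling over all miRNAs.

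Across the 10 bone marrow arrays the members were described by their mean profile. Each was centred on its own mean, and the average of the 7 profiles ran from 0.31 on the unirradiated PBS i.p. array to -0.31 on the unirradiated nilestriol array. The root-mean-square distance from this average was 0.051 for miR-17-5p, 0.068 for miR-17-3p, 0.081 for miR-20a-5p, 0.082 for miR-18a-5p, 0.152 for miR-92a-3p, 0.163 for miR-19b-3p and 0.177 for miR-19a-3p. The members themselves make up the average, which draws these distances down. Of 289 other miRNAs detected on all 10 arrays, the closest were miR-191-3p (0.067), miR-20b-5p (0.079), miR-181c-5p (0.104), miR-378b (0.113), miR-532-5p (0.117) and miR-130b-3p (0.129), against a median of 0.416 over the 289. miR-20b-5p differs from miR-20a-5p at 2 bases (U1C and U10C), and a probe of either matches the other with 1 mismatch. Its own values were 1.41, 1.11, 1.12, 1.07 and 0.64 at 0 Gy and 1.07, 0.78, 1.08, 0.80 and 0.73 at 8 Gy.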

How the data were processed

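Spot intensity was deposited by the authors as scanner output (Agilent's Feature Extraction, version 10.7.1.1, per the file headers). The authors' table of deposited values is log2, and how it was scaled is not given in the sources used here. From the intensities, spots marked as outliers (4.42 to 5.27%) were dropped, spots averaged per probe and over the 2 probes, and scaled to the 75th percentile, on each array, of those miRNAs that every array of a fit detected. Values below a floor (log2 -5.31 in bone marrow, -5.28 in hypothalamus, -5.61 on matched arrays) were raised to it. A miRNA was detected where a probe total exceeded 3 times its error, and tested where detected on at least 0.5 of the arrays. Tests were two-sided, with limma 3.58.1 in R 4.3.3, lmFit and eBayes, adjusted by Benjamini-Hochberg at 0.05 over all tested miRNAs. Bone marrow irradiation had the arm as block, drugs had dose as covariate with both PBS routes as vehicle, and tissue had condition as block. Scripts were tested on simulated data. The number of arrays limits the precision.

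The members, lists and comparisons were chosen with earlier results of these data known. The 7 members were named in every comparison, with the other strands of their hairpins, the 2 paralog clusters, 2 seed mates, and the 6 non-members with the smallest distance to the members' mean profile. Marker lists were erythroid, myeloid, lymphoid, neuronal, choroid plexus and ependyma, and muscle. The summed scaled signal of the muscle list was 0.201 to 0.405 in bone marrow and 0.281 to 1.03 in hypothalamus on matched arrays. Alternatives were other scalings, background, summaries, floors and filters, slides, and leaving out each array. In the bone marrow irradiation and tissue fits, an array left out takes its pair out of the difference, because arm and condition are blocks. Sequences came from RefSeq tables on GRCm38.p6, matched by name.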

Additional observations from a re-analysis of the deposited data

How the results depend on the processing

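All 7 members stayed higher in bone marrow than in hypothalamus under each alternative that tested them, except miR-17-5p (-1.61) and miR-17-3p (-1.60) with the scanner totals. When a single array was left out, its matched array no longer bore on the difference. Every tested member was then called, 7 of 7 without a hypothalamus array and 5 of 5 without a bone marrow array. In the latter fits miR-18a-5p and miR-19a-3p fell below the detection filter and were not tested. Their median difference ran from 1.66 with a normexp background to 7.70 with the authors' table, against 4.13 (3.48 without scaling, 4.57 with quantile normalization and 4.89 with scaling over all miRNAs). The median of all miRNAs in that comparison ran from -0.86 without scaling to 0.62 with scaling over all miRNAs, and the called miRNAs from 43 higher and 263 lower to 242 higher and 134 lower.

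For bone marrow irradiation 1 member was called with quantile normalization and 1 with normexp (miR-19b-3p each time), and 0 to 1 with single arrays left out. miR-92a-3p was below 0 with scaling over all miRNAs (-0.000358), no scaling (-0.036), quantile normalization (-0.17), the authors' table (-0.20) and slide 1 (-0.15), and ranged from -0.0577 to 0.120 with single arrays left out. Within slide 2 miR-17-3p was 0.16, miR-17-5p 0.12, miR-18a-5p 0.12 and miR-20a-5p 0.24. The counts by arm and slide under other scalings were added after seeing the data; on slide 2 they ran from 3 to 12 lower of 14, against 5. miR-20a-5p ranged from -0.0960 to 0.0283 with single arrays left out, above 0 without any of the PBS arrays.

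For CBLB502 3 members were called with scaling over all miRNAs and 1 with quantile normalization. miR-19a-3p was -0.19 with scaling over all miRNAs, -0.15 with quantile normalization, -0.14 with the authors' table, -0.00781 with scanner totals and -0.00592 against PBS i.p. alone, and ranged from -0.0839 to 0.155 with single arrays left out. miR-92a-3p was 0.023 with quantile normalization and 0.048 with the authors' table, and miR-20a-5p 0.0025 with that table. For nilestriol 5 were called with scaling over all miRNAs.

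Of the seed contrasts, miR-18 for tissue was -0.70 with normexp, miR-18 for irradiation 0.058 with the authors' table, miR-19 for tissue 0.61 with that table, 1.97 with scanner totals and 0.054 with an offset for the floor, and miR-92 for tissue -1.67 with that table. The causes were not tested.

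Over all miRNAs the called counts moved by more than 1.5 times between settings, from 0 to 93 for irradiation and for its vehicle arms, 0 to 107 for CBLB502, 0 to 13 for amifostine, 0 to 95 for nilestriol and 160 to 382 for tissue, and up to 41, 39 and 52 for irradiation by CBLB502, amifostine and nilestriol, 9 for hypothalamus amifostine and 58 for tissue by irradiation. No value could be had by leaving out arrays of the vehicle arms or hypothalamus fits, nor by leaving out a drug's own array in its irradiation contrast, nor within a slide for amifostine or nilestriol. The labels give 1 array per group and no replicate numbers, so the pairs are the arms for irradiation and the conditions for tissue, both fitted as blocks above; without the arm block 0 members and 26 of 371 miRNAs were called for irradiation.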
